A study of Mus musculus with 12 samples.

Results

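The 10 genes described here are the CDK inhibitors Cdkn1a, Cdkn1b, Cdkn1c, Cdkn2a, Cdkn2b, Cdkn2c and Cdkn2d and the D-type cyclins Ccnd1, Ccnd2 and Ccnd3. They were picked by gene name, and all 10 were listed in each of the 3 tables of a series of 28995 genes. RNA was sequenced from primary fibroblasts of the hindlimb skeletal muscle of 2 wild-type C57BL/10 mice at 3 days of age. The cells of each mouse were pooled, replated in medium with charcoal-stripped serum and treated for 48 hours with 1 µM aldosterone, 1 µM spironolactone or the solvent DMSO (vehicle). Aldosterone is the endogenous agonist of the mineralocorticoid receptor, and spironolactone is a steroid antagonist of the same receptor. Each treatment had 4 libraries, and all 3 groups shared the strain, the age, the stripped serum and the solvent. In the labels a library is named by its sample number, 1 or 2, followed by its number as a biological replicate, also 1 or 2. The labels describe 2 plates of each mouse in a treatment without saying which of these numbers is the mouse, so p-values partly measure the spread between plates.

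Cells enter the cell cycle when D-type cyclins bind the kinases Cdk4 and Cdk6 and start the phosphorylation of the retinoblastoma protein, which frees E2F transcription factors to turn on the genes of DNA replication. The INK4 proteins, made from Cdkn2a, Cdkn2b, Cdkn2c and Cdkn2d, bind Cdk4 and Cdk6 and keep the cyclins off. The Cip/Kip proteins, made from Cdkn1a (p21), Cdkn1b (p27) and Cdkn1c (p57), bind cyclin and kinase together, block the later kinase complexes and can also help D-type cyclins to assemble with their kinases. Cdkn1c is imprinted and read mainly from the maternal copy, and in muscle it is known for its part in the cell cycle exit of myoblasts.

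The 12 libraries held 19136923 to 30219185 reads on genes (median 23833379.5). Values are normalized counts, which are reads divided by a size factor of the library. The value given for a library is on a scale shared by all 12, and tests were run within the table of each pair of treatments. Where 4 values are listed, those of sample number 1 come first. Every member was well measured, with 325 reads or more in each library. Aldosterone raised the steroid response genes Fkbp5, Per1 and Tsc22d3 by between 1.83 and 4.26 on the log2 scale compared to vehicle. The cells carried the 8 fibroblast markers of their label, which summed to 1039300 to 1138200 normalized counts in vehicle, 950610 to 1077400 in spironolactone and 833170 to 947060 in aldosterone. Among them Col3a1 was lower with aldosterone (-0.43 on the log2 scale) and Pdgfra was higher (0.91). The sum was largely Col1a1 and Col1a2, neither of them called. The aldosterone libraries of Col1a1 were all below those of vehicle (-0.34, limma adjusted p = 0.0527). Of 7 macrophage markers, 2 were not listed and 3 of the others had 3 reads or fewer in each library, Ptprc and Adgre1 among them. Cd68 (12.3 to 35.9 normalized counts in vehicle) and Csf1r (43.5 to 67.0) were detected, and neither was called with aldosterone. The summed macrophage markers came to 61.7 to 92.4 in vehicle and 63.5 to 94.2 in aldosterone. The summed myogenic markers were lower with aldosterone (212 to 456) than with vehicle (528 to 784), and this sum was largely Acta1, while the defining genes Pax7, Myf5 and Myod1 were at or near 0. The summed endothelial markers were higher (686 to 764 against 479 to 539), where Kdr rose from a mean of 45.1 to 168 (limma adjusted p = 0.00183). Tek, the most abundant of them, was not called (444 and 523), and Pecam1 had means of 6.57 and 2.85. The summed adipocyte markers were higher as well (116 to 225 against 29.6 to 97.5). Of them Plin1 was called (limma adjusted p = 0.000619), while Adipoq and Cidec were not called and overlapped between the groups. The summed Schwann cell markers overlapped (58.9 to 86.8 against 35.6 to 95). The part of these cells in the results below was not tested, and in bulk RNA fewer cells of a type and less RNA per cell cannot be told apart.

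Aldosterone changed 6 of the 10 genes compared to vehicle. Cdkn1c, Ccnd1, Ccnd3, Cdkn2a and Cdkn2b were higher, and Cdkn2c was lower. The genes were called by limma at an adjusted p of at most 0.05. At that threshold 5.68% of the 27319 genes in the table were higher and 4.74% were lower. Well-measured genes were called more often, with 22.8% of the 7977 genes of a mean of at least 400 normalized counts in either direction, a level that every member passed. The remaining members, Cdkn1a, Cdkn1b, Cdkn2d and Ccnd2, did not pass. In 5 members all 4 aldosterone libraries were above all 4 vehicle libraries, as in 7.55% of all genes, and in 2 members they were all below, as in 6.9% of all genes.

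**Figure D1:**
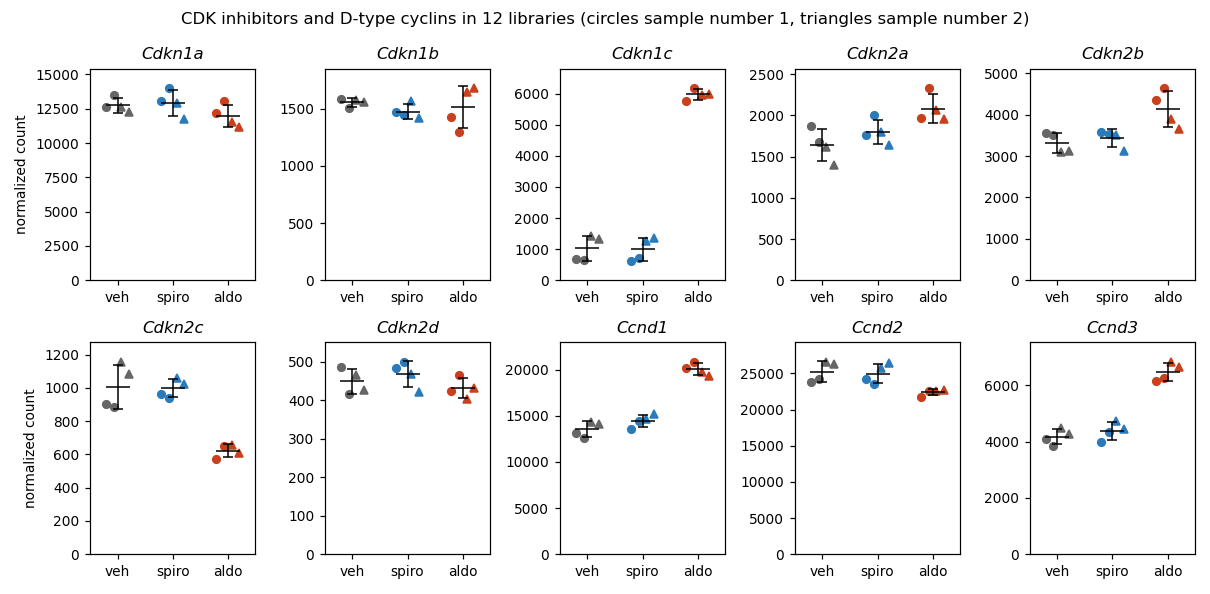
Normalized count of each gene (y axis, from 0) in the 12 libraries by treatment (veh, vehicle; spiro, spironolactone; aldo, aldosterone), with circles for sample number 1, triangles for sample number 2, and the mean ± SD of 4 libraries. The 4 aldosterone libraries of Cdkn1c sit between 5775 and 6185, far above the others, and those of Cdkn2c sit between 575 and 659, below the others.

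Of the Cip/Kip genes, Cdkn1c (ENSMUSG00000037664, minus strand, chr7:143012076-143014787 in the tables) had by far the largest change among the members. In vehicle it had 692 and 646 normalized counts in the libraries of sample number 1, and 1423 and 1325 in those of sample number 2. In spironolactone it had 634 and 706 in sample number 1, and 1263 and 1360 in sample number 2. In aldosterone it had 5775 and 6185 in sample number 1, and 5955 and 5971 in sample number 2. Aldosterone libraries were thus high and close together, while vehicle and spironolactone libraries were low and fell into pairs by sample number. The log2 fold change was 2.64 against vehicle (SE 0.19, limma adjusted p = 7.94e-08, higher in 4 of 4 libraries), a fold of 6.22. Cdkn1c was the only member past the study's further threshold of an absolute log2 fold change of 1, which 1.4% of the genes in the table passed upward.

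Cdkn1a, the p21 gene that p53 induces, was the most abundant Cip/Kip transcript per kb of listed gene length in each treatment, and its groups overlapped. It ranged from 12269 to 13471 normalized counts in vehicle and from 11164 to 13029 in aldosterone. Its log2 difference was -0.09, with a 95% interval from -0.22 to 0.04 (limma adjusted p = 0.453). The difference of Cdkn1b, the p27 gene, was -0.05 on the log2 scale (95% interval -0.21 to 0.11, limma adjusted p = 0.77), with 1502 to 1587 normalized counts in vehicle and 1296 to 1682 in aldosterone. The intervals of these genes exclude changes of the size seen in Cdkn1c.

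The D-type cyclins split. Ccnd1 (ENSMUSG00000070348, chr7:144483668-144493662), the cyclin best known as a target of growth factor signals, had 13183, 12563, 14346 and 14135 normalized counts in vehicle and 20194, 20866, 19773 and 19333 in aldosterone. The aldosterone libraries were all above those of vehicle, and the log2 fold change was 0.56 (SE 0.06, limma adjusted p = 4.98e-06). Ccnd3 (ENSMUSG00000034165, chr17:47815976-47910616), the cyclin linked to differentiating muscle, had 4110, 3847, 4501 and 4280 in vehicle and 6161, 6256, 6845 and 6660 in aldosterone. These groups did not overlap either, and the log2 fold change was 0.63 (SE 0.06, limma adjusted p = 1.79e-06).

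Ccnd2 (ENSMUSG00000000184, chr6:127102125-127129156) moved the other way by a small amount. It had 23855, 24267, 26624 and 26303 normalized counts in vehicle and 21787, 22580, 22636 and 22680 in aldosterone. All aldosterone libraries were below all vehicle libraries. The log2 difference was -0.17 (SE 0.06), which did not pass without a block (limma adjusted p = 0.0763) and passed with a replicate block on the sample number (limma adjusted p = 0.0012). If the sample number marks the mouse, the block takes out the level difference between mice. Its p-values would then measure mainly the spread between plates.

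Of the INK4 genes, Cdkn2c (p18, ENSMUSG00000028551, chr4:109518073-109524386) was lower with aldosterone. It had 901, 888, 1158 and 1081 normalized counts in vehicle and 575, 649, 659 and 605 in aldosterone. The groups stood well apart, and the log2 fold change was -0.69 (SE 0.09, limma adjusted p = 4.64e-05, lower in 4 of 4 libraries). Cdkn2c was the only CDK inhibitor called lower.

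Cdkn2a and Cdkn2b lie side by side on chromosome 4 and were slightly higher. Cdkn2a (ENSMUSG00000044303, chr4:89192708-89212890), whose gene makes both p16 and the unrelated p19Arf, had 1870, 1683, 1623 and 1395 normalized counts in vehicle and 1967, 2335, 2066 and 1952 in aldosterone. Counts per gene do not tell its transcripts apart. Cdkn2b (p15, ENSMUSG00000073802, chr4:89224536-89229276) had 3552, 3518, 3091 and 3118 in vehicle and 4349, 4650, 3885 and 3664 in aldosterone. The lowest aldosterone library was only just above the highest vehicle library in both genes. The log2 fold change was 0.34 for Cdkn2a (SE 0.08, limma adjusted p = 0.0114) and 0.31 for Cdkn2b (SE 0.07, limma adjusted p = 0.0112). With the replicate block on the sample number the limma adjusted p was 3.81e-05 for Cdkn2a and 9.52e-07 for Cdkn2b. As for Ccnd2, these p-values with the block may measure mainly the spread between plates. Without the block the calls were lost in most fits with a single library left out. Cdkn2a passed without vehicle replicate 1_1 and Cdkn2b without aldosterone replicate 2_2, and each was lost on leaving out any of the other 7 libraries, with a limma adjusted p of up to 0.134 for Cdkn2a and 0.133 for Cdkn2b. The log2 fold changes stayed between 0.267 and 0.409 for Cdkn2a and between 0.255 and 0.369 for Cdkn2b. Cdkn2d (p19Ink4d) had 418 to 487 normalized counts in vehicle and 403 to 465 in aldosterone, a log2 difference of -0.06 (95% interval -0.23 to 0.11, limma adjusted p = 0.732).

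**Figure D2:**
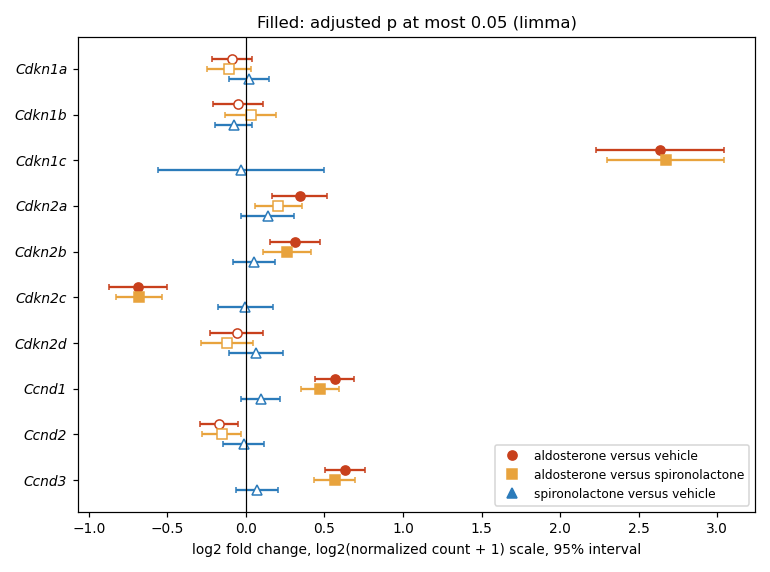
Log2 fold change of each gene (x axis) with its 95% interval in the 3 comparisons, filled where the limma adjusted p was at most 0.05. Cdkn1c stands at 2.64 and 2.67 in both aldosterone comparisons, Cdkn2c at -0.69 and -0.68, and all intervals of spironolactone against vehicle cross 0.

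Compared to spironolactone, at the same dose and time, aldosterone raised Cdkn1c, Ccnd1, Ccnd3 and Cdkn2b and lowered Cdkn2c. Here 4.93% of the 27631 genes were higher and 3.96% were lower, and 18.6% of the 8065 genes of a mean of at least 400 were called in either direction. All 4 aldosterone libraries were above all 4 spironolactone libraries in 4 members, as in 6.76% of all genes, and below them in 2 members, as in 6.22% of all genes. This comparison shares its aldosterone libraries with the one against vehicle and is not a second, independent test of them. The log2 fold change of Cdkn1c was 2.67 (SE 0.18, limma adjusted p = 1.33e-08), and 1.38% of the genes in this table were called higher past a log2 fold change of 1.

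The spironolactone libraries of Ccnd1 had 13571, 14397, 14644 and 15146 normalized counts, well below the aldosterone libraries, a log2 fold change of 0.47 (SE 0.06, limma adjusted p = 1.78e-05). Those of Ccnd3 had 3974, 4355, 4752 and 4457, a log2 fold change of 0.56 (SE 0.06, limma adjusted p = 5.68e-06). Both cyclins were thus lower in spironolactone than in aldosterone in each library. The spironolactone libraries of Cdkn2c had 965, 941, 1062 and 1022, a log2 fold change of -0.68 (SE 0.07, limma adjusted p = 2.2e-06).

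For Cdkn2b the spironolactone libraries had 3580, 3538, 3519 and 3118, and the log2 fold change was 0.26 (SE 0.07, limma adjusted p = 0.0294). That call was lost on leaving out any of the 8 libraries (limma adjusted p from 0.0532 to 0.224), while the log2 fold change stayed between 0.205 and 0.319. With the replicate block on the sample number its limma adjusted p was 7.68e-05. Cdkn2a had 1762, 2002, 1794 and 1645 in spironolactone, which overlapped aldosterone. Its log2 difference was 0.21 (SE 0.07), with a limma adjusted p of 0.0897 without a block and 0.00636 with the replicate block on the sample number. Ccnd2 had 24244, 23477, 25755 and 26410 in spironolactone, each above every aldosterone library. Its log2 difference was -0.15 (SE 0.06), with a limma adjusted p of 0.141 without a block and 0.00853 with the replicate block. Here too the p-values with the block may measure mainly the spread between plates. Cdkn1a, Cdkn1b and Cdkn2d overlapped between the groups, with log2 differences of -0.11, 0.03 and -0.12 (limma adjusted p = 0.436, 0.888 and 0.482).

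Spironolactone against vehicle showed no called member. None of the 10 had an unadjusted p under 0.05, DESeq2 and edgeR called 0 members as well, and 0% of the 27598 genes in the table were called by limma. DESeq2 called 13 genes of the table, and 1251 had an unadjusted limma p under 0.05. All members overlapped between the groups, whereas 1.39% of all genes were above and 1.24% below in all 4 libraries. The intervals were narrow for most members. Ccnd1 differed by 0.09 (95% interval -0.03 to 0.22) and Ccnd3 by 0.07 (95% interval -0.06 to 0.20) on the log2 scale. The interval of Cdkn1c was wide, from -0.56 to 0.50 around -0.03, as its libraries differed by sample number in both groups.

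The level of Cdkn1c differed between the sample numbers within vehicle and within spironolactone, a contrast added after the values were seen. If the sample number marks the mouse, this contrast sets 1 mouse against 1 mouse. Its p-values would then measure only the spread between plates. Sample number 2 was higher than sample number 1 by 1.04 on the log2 scale in vehicle (SE 0.06, limma adjusted p = 7.97e-07) and by 0.97 in spironolactone (SE 0.08, limma adjusted p = 1.89e-05). In aldosterone the difference was -0.001 with a standard error of 0.06, so no such gap was detectable there. Between the sample numbers 2.58% of genes were called in vehicle, 1.84% in spironolactone and 3.55% in aldosterone. Of the other members, Cdkn1b (0.29, limma adjusted p = 0.0244) and Cdkn2b (-0.25, limma adjusted p = 0.0217) differed between sample numbers in aldosterone, and none was called in vehicle or spironolactone.

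The aldosterone effect on Cdkn1c therefore differed in size by sample number while the level reached did not. Against vehicle it was 3.16 in sample number 1 and 2.12 in sample number 2, a difference of -1.04 on the log2 scale (SE 0.09, limma adjusted p = 0.000639, edgeR adjusted p = 1.57e-05). On the linear scale the means rose from 669 to 5980 normalized counts in sample number 1, a ratio of 8.94, and from 1374 to 5963 in sample number 2, a ratio of 4.34. By limma 4 of the 27319 genes, or 0.0146%, had such a difference, and Cdkn1c was the single member among them. By edgeR it was 12 of 15416 genes, again with Cdkn1c as the single member. The other 3 called by limma, named after their values were seen, were Angptl7, Rpl7a and Rrm2. Against spironolactone, where 0.0145% of genes were called, the effect on Cdkn1c was 3.16 and 2.19, a difference of -0.97 (limma adjusted p = 0.00126, edgeR adjusted p = 6.12e-05). Each sample number has only 2 libraries per treatment. If the sample number marks the mouse, the p-values of this difference too would measure only the spread between plates. With any 1 of the 8 libraries left out the difference against vehicle stayed between -0.985 and -1.09 but was no longer called (limma adjusted p from 0.253 to 0.459), and neither was any other gene of the table.

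**Figure D3:**
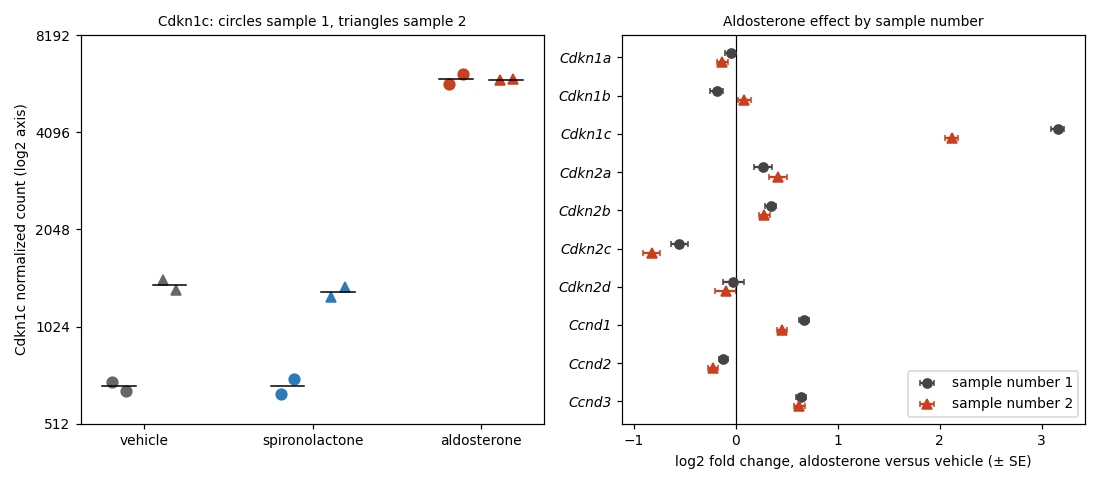
Left, normalized count of Cdkn1c on a log2 axis by treatment and sample number (points, single libraries; bars, means of 2). Right, log2 fold change of aldosterone against vehicle (± SE) in each sample number for the 10 genes. The vehicle and spironolactone libraries of Cdkn1c lie near 669 in sample number 1 and from 1263 to 1423 in sample number 2, and the aldosterone libraries coincide.

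For the other 9 members no difference in the aldosterone effect between sample numbers was called. Ccnd1 rose by 0.67 in sample number 1, with a difference of -0.21 in sample number 2 (limma adjusted p = 0.895), and the effect on Ccnd3 differed by -0.02 (limma adjusted p = 0.989). Cdkn2c fell by 0.55 on the log2 scale in sample number 1, with a further difference of -0.27 in sample number 2 (limma adjusted p = 0.895).

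Divided by their listed gene length, the members could be ordered by level. That length need not be the length of the transcripts these cells make, so the order between genes is rough. In vehicle the highest were Cdkn1a (3585 normalized counts per kb ± 145, SD, n = 4), Ccnd1 (2879 ± 177), Ccnd2 (2685 ± 149) and Cdkn2b (2388 ± 179), followed by Cdkn2a (1402 ± 167). Ccnd1 overlapped Ccnd2, and Ccnd2 overlapped Cdkn2b. Cdkn1c (501 ± 201) and Ccnd3 (477 ± 31.5) came next and overlapped, Cdkn2c (375 ± 49.8) overlapped Cdkn1b (342 ± 8.28), and Cdkn2d was lowest (286 ± 20.7). In aldosterone the order was Ccnd1 (4256 ± 139), Cdkn1a (3375 ± 229), Cdkn2b (2976 ± 320), Cdkn1c (2929 ± 82.3), Ccnd2 (2383 ± 45.1), Cdkn2a (1775 ± 151), Ccnd3 (739 ± 37.1), Cdkn1b (332 ± 40.2), Cdkn2d (274 ± 16.3) and Cdkn2c (232 ± 14.6). In aldosterone Cdkn1c overlapped Cdkn2b, Cdkn1a overlapped Cdkn2b, and Cdkn1b overlapped Cdkn2d. The place of Cdkn1c in vehicle depended on the sample number. It had 339 and 317 normalized counts per kb in sample number 1, below Ccnd3 (468 and 438) and close to Cdkn1b (349 and 330) and Cdkn2c (335 and 330). In sample number 2 it had 698 and 650, above Ccnd3 (513 and 488).

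Summed per kb, the Cip/Kip transcripts came to 4428 ± 145 in vehicle, 4448 ± 179 in spironolactone and 6636 ± 240 in aldosterone (SD, n = 4). Cdkn1c made up 7.14% to 15.2% of that sum in the vehicle libraries, 7.21% to 15.6% in spironolactone and 43.0% to 45.5% in aldosterone, with means of 11.2%, 10.95% and 44.2%, while the share of Cdkn1a went from 81.0% in vehicle to 50.8%. The D-type cyclins summed to 6041 ± 348 in vehicle, 6220 ± 289 in spironolactone and 7378 ± 120 in aldosterone, with no overlap between aldosterone and the others. Ccnd1 rose from 47.7% to 57.7% of that sum and Ccnd3 from 7.89% to 10.0%, and Ccnd2 went from 44.5% to 32.3%. The INK4 genes summed to 4450 ± 296 in vehicle and 5257 ± 458 in aldosterone, of which Cdkn2c was 8.49% and 4.42%. Their sum in spironolactone, 4680 ± 268, overlapped that in aldosterone. These sums and shares rest on the listed gene lengths, so the weight of each gene in them is rough. They are descriptions and were not tested.

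**Figure D4:**
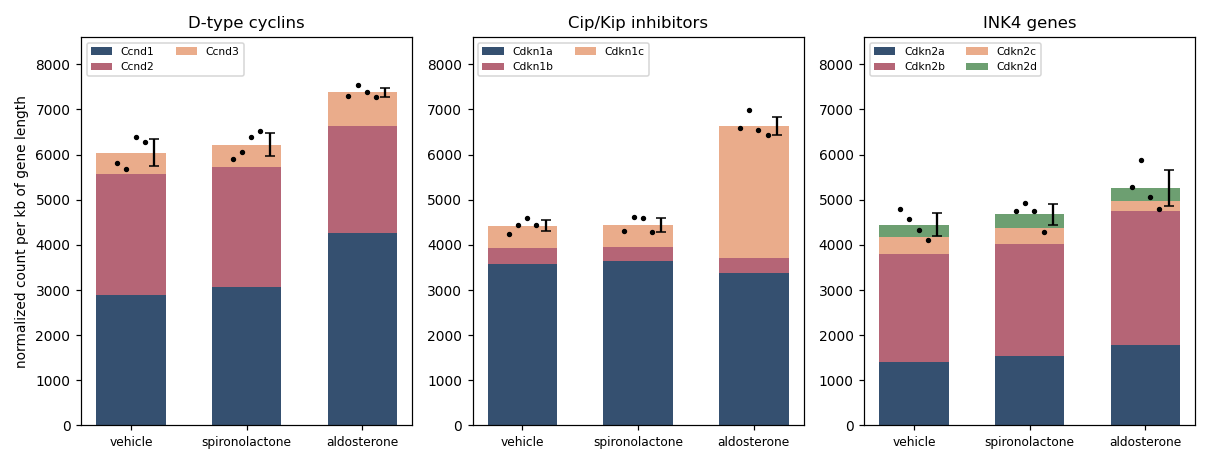
Stacked means of normalized counts per kb of gene length (y axis, from 0) for the 3 families in each treatment, with a dot for the total of each library and a bar for its SD (n = 4). The Cip/Kip total is near 4428 in vehicle and 6636 in aldosterone, where Cdkn1c fills 44.2% of it.

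Reads may be shared with genes on the other strand, since the sources used here do not say whether counting used strand. By the listed positions Cdkn1c, Cdkn1b, Cdkn2a and Cdkn2d overlapped no other listed gene. Ccnd1 overlapped LTO1 (452 to 775 reads per library), Ccnd3 overlapped Bysl (634 to 1139 reads) and Cdkn2b lay within Gm12610 (65 to 144 reads), each on the opposite strand. These neighbours held far fewer reads than the members beside them.

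RefSeq promoter windows (GRCm38.p6, 250 bases before a transcript start to 50 after it) were at hand for 7 of the 10 members, in 11 windows. Cdkn1c, Ccnd1 and Ccnd2 had no entry. The windows printed are those of Cdkn2c, the member that fell, Ccnd3, a member that rose, and Cdkn2a, a member with an E2F motif. Capitals mark the 6-base half-site of steroid receptors AGAACA, the GC box GGGCGG and the E2F motif TTTCCCGC, each searched on both strands.
Cdkn2c, chr4:109666707-109667006, minus strand: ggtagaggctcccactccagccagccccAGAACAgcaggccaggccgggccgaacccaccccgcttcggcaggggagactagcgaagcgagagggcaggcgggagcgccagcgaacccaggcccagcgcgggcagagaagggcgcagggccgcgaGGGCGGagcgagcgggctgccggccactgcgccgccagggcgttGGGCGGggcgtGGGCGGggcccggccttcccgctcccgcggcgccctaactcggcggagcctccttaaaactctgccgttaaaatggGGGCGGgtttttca
Ccnd3, chr17:47593217-47593516, plus strand: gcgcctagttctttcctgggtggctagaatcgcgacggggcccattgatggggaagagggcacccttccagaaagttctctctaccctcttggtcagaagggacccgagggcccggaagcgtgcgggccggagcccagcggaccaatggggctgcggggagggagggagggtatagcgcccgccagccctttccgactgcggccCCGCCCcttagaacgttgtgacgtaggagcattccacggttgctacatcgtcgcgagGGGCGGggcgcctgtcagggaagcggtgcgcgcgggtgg
Cdkn2a, chr4:89294570-89294869, minus strand: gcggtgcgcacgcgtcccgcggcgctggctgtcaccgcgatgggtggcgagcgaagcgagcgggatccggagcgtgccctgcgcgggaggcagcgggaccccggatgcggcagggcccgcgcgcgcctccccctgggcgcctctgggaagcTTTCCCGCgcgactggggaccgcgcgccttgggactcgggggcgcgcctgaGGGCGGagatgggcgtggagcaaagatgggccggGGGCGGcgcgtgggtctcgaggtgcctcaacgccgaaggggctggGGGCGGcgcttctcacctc

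AGAACA was found in 1 of the 11 member windows, that of Cdkn2c, 222 bases before the start, and in 19% of all 32851 windows. The palindrome of 2 half-sites, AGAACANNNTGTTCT, was in none of the member windows and in 3 of all windows. GGGCGG was in 9 member windows, covering all 7 genes, and in 35.7% of all windows. The member windows held from 44.0% to 77.0% G and C, with a median of 52.7% over all windows. GGGCGG is itself only G and C, and the part of base content in its count was not tested. TTTCCCGC was only in the window of the upstream start of Cdkn2a, which makes p19Arf, 99 bases before the start, and in 1.07% of all windows. The related TTTGGCGC was in no member window and in 0.514% of all windows. A match describes these letters and is no evidence of binding, and which start these cells use was not tested.

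Around the members, the kinases that the D-type cyclins bind and the pocket proteins they act on held 2 called genes of 5 with aldosterone. Among all genes of a mean of at least 400, 22.8% were called in either direction. Rbl2 was higher (0.30 on the log2 scale, limma adjusted p = 0.0088) and Rbl1 was lower (-0.37, limma adjusted p = 0.0254). Both make relatives of the retinoblastoma protein. Cdk4, Cdk6 and Rb1 were not called, with log2 differences of -0.17, -0.15 and -0.0015. The aldosterone libraries of Cdk4 were all below those of vehicle (limma adjusted p = 0.0739). The median over the list was -0.15, against -0.01 over all genes of the table.

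With aldosterone 4.74% of all genes were lower than with vehicle. Of genes of a mean of at least 400, 22.8% were called in either direction. The cyclins and kinases of later cell cycle phases were lower in 6 of 7 genes and higher in none, with a median of -0.51. The largest changes were in Ccne2 (-0.77, limma adjusted p = 0.00246), Ccna2 (-0.69, limma adjusted p = 3.21e-06), Ccnb1 (-0.55) and Ccnb2 (-0.51). Ccne1, the other E-type cyclin, was not called (-0.37, limma adjusted p = 0.0831). The replication genes known as E2F targets were lower in 12 of 19 and higher in none, with a median of -0.39, led by Cdc6 (-1.04, limma adjusted p = 0.000178), Mcm10 (-0.83), Tk1 (-0.67) and Cdc45 (-0.65). Mki67 and Top2a, markers of dividing cells, were lower by -0.78 and -0.81. These genes moved in the same libraries as Cdkn1c, Ccnd1, Ccnd3 and Cdkn2c, and whether the changes depend on each other was not tested. Lower RNA of these genes is not a measured fall in cell division. In separate cultures of neonatal wild-type fibroblasts, the study found no significant difference in EdU-positive, or dividing, cells between aldosterone and vehicle.

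The next lists hold called genes at shares to be read against the 22.8% called in either direction among genes of a mean of at least 400. Some listed genes lie below that mean, with E2f7, E2f8, Cdc25c and Dtl among the called ones, so the comparison is rough. Of 10 E2F factors and partners 5 were called. E2f6 (0.47) and Tfdp2 (0.30) were higher, and E2f8 (-0.73), E2f7 (-0.53) and E2f3 (-0.25) were lower. E2f6, E2f7 and E2f8 make repressors of the family. Of 8 CDK phosphatases, inhibitory kinases and activating kinase subunits 2 were called, a share near that background. Wee1, whose kinase holds back Cdk1, was higher (0.44, limma adjusted p = 0.00136) and Cdc25c, whose phosphatase opposes it, was lower (-0.69, limma adjusted p = 0.00198). Of 10 ubiquitin ligase parts that act on the members' proteins 3 were called, again near the background. Skp2 (-0.61) and Dtl (-0.56) were lower and Fbxo31 (0.31) was higher. Skp2 is known to mark p27 and Dtl to mark p21 for breakdown, and the RNA of both inhibitors overlapped between groups.

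Of 12 p53 targets other than Cdkn1a, none was higher and 2 were lower, Sesn2 (-0.30) and Zmat3 (-0.26), with a median of -0.04. Beside these counts, 22.8% of all genes of a mean of at least 400 were called in either direction. Of 8 neighbours of Cdkn1c in its imprinted domain, none was called against vehicle, which says little for so short a list. Kcnq1ot1, the long RNA read from the paternal copy of that domain, differed by 0.14 (limma adjusted p = 0.467), and Cd81, Nap1l4 and Tssc4 by 0.04, -0.03 and -0.17. Slc22a18 differed by 0.30 (means of 292 against 238, limma adjusted p = 0.0919), with all 4 aldosterone libraries above those of vehicle. Ascl2, Kcnq1 and Phlda2 had means under 4 normalized counts in both groups, too few to show a change.

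**Figure D5:**
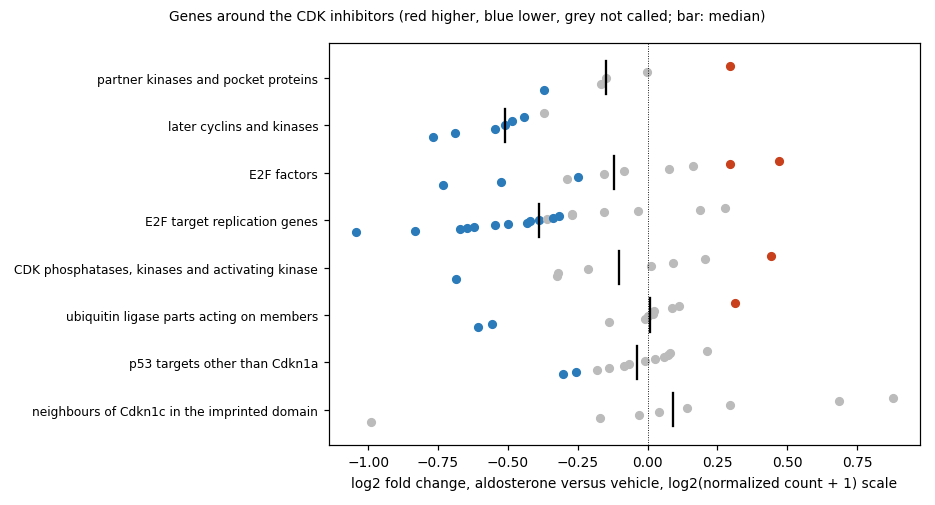
Log2 fold change of aldosterone against vehicle (x axis) for the genes of 8 lists around the members (a point per gene, red higher, blue lower, grey not called; bar, median). The later cyclins and kinases (median -0.51) and the E2F target replication genes (median -0.39) lie to the left of 0, and the imprinted neighbours of Cdkn1c hold no called gene.

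Compared to spironolactone the lists gave similar counts, with 6 of the 7 later cyclins and kinases and 14 of the 19 replication genes lower, and none higher. Here 3.96% of all genes were lower, and 18.6% of genes of a mean of at least 400 were called in either direction. Of the 8 imprinted neighbours 1 was lower, Tssc4 (-0.28, limma adjusted p = 0.00768). Cdk4, which was not called against vehicle, was called lower here (-0.23, limma adjusted p = 0.0122). The aldosterone libraries in this comparison are the same as above.

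By likeness of level over the 12 libraries, the genes closest to Cdkn1c among 12270 compared were Spp1 (Pearson's r = 0.992), Tgfa (0.991), Ppl (0.988), Sdc4 (0.986) and Cyb561 (0.986). Those closest to Cdkn2c were Arhgap19 (0.980), Samd14 (0.978), Pik3r3 (0.974), Efnb2 (0.974) and Nrg1 (0.969). All points share the same 12 libraries and 3 treatments, so these values describe a common pattern across them.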

How the data were processed

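Poly(A) RNA of 12 fibroblast cultures was sequenced, 4 per treatment. The submitters' processing notes name HISAT2 2.0.5, featureCounts 1.5.0-p3 and mm39, while the methods of the study name mm9, in whose annotation 0 of the 9 members it lists had the start given in the tables. The authors deposited 3 tables, 1 per treatment pair, of signal values, made by dividing the reads of a gene by the library's size factor. The tables also hold the authors' own fold changes and p-values from DESeq2, which were not used. Reads were recovered as whole multiples of the smallest step in a column (100% of values within 0.01 reads), and median-of-ratios size factors over 12 libraries gave the common scale. Read counting was not repeated here.

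As the values are normalized, each table was fitted on log2(normalized count + 1) with limma 3.58.1 in R 4.3.3, with a trend in the prior variance and treatment as the only factor. This scale understates changes of low genes. P-values were adjusted by Benjamini-Hochberg over every gene of the table, with a threshold of 0.05. The difference between sample numbers was tested as an interaction with treatment. Tests were checked on simulated counts. These were drawn separately for each library, with no level shared across treatments by a sample number, so the check does not cover that. Deviations from the group means went together in libraries that share a sample number across treatments (Pearson's r from 0.134 to 0.283 over 24 pairs, across 15276 genes, which are not independent), but not in those that share a biological replicate number (mean r -0.00547). The sample number was therefore also fitted as a replicate block. If it marks the mouse, p-values with this block measure mainly the spread between plates.

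All 10 members are named, and in each list of other genes up to 4 of the called genes with the largest changes, with others given for context. Members and lists were chosen with earlier results of these data known. Contrasts between sample numbers within a treatment, the interaction against spironolactone and the comparison with genes of a mean of at least 400 were added after seeing the data. Alternatives were DESeq2 1.42.0 and edgeR 4.0.16 on the recovered reads, a pseudocount of 0.5, a mean of at least 10, TMM scaling, 1 fit of 12 libraries, no trend, replicate blocks and leaving out each library.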

Additional observations from a re-analysis of the deposited data

Results flagged for a closer look

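The aldosterone effect on Cdkn1c differed between the sample numbers, by -1.04 on the log2 scale (sample number 2 minus 1) against vehicle and by -0.97 against spironolactone, each with 2 libraries per sample number and treatment. These comparisons share their aldosterone libraries. The cause was not tested.

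Within a treatment, 2 of the 30 sets of 4 libraries had a library far from the other 3, where chance flags about 1 in 20. Cdkn2b in spironolactone replicate 2_2 had 3118 normalized counts, with 3519 in the nearest library (gap over range 0.869). Ccnd2 in aldosterone replicate 1_1 had 21787, with 22580 in the nearest (gap over range 0.887).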

How the results depend on the processing

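The calls of Cdkn1c, Ccnd1, Ccnd3 and Cdkn2c in both aldosterone comparisons held under all 17 alternatives, with log2 fold changes of Cdkn1c from 2.45 to 2.83 against vehicle. Members called ranged from 4 to 5 with a library left out against vehicle, where 6 were called in full, and were 4 against spironolactone, where 5 were called in full. Without the trend Cdkn2a and Cdkn2b were lost against vehicle (limma adjusted p = 0.166 and 0.169) and Cdkn2b against spironolactone (limma adjusted p = 0.26). Ccnd2 passed against vehicle by DESeq2 (adjusted p = 0.00734), by edgeR (adjusted p = 0.0414) and among genes of a mean of at least 10 (limma adjusted p = 0.0483), and against spironolactone by DESeq2 (adjusted p = 0.0189).

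The replicate block on the sample number gave 7 called members against vehicle, 7 against spironolactone and 0 between spironolactone and vehicle, and changed no call of a member other than those of Ccnd2 and Cdkn2a given in the report. Over all genes of the aldosterone and vehicle table it moved the calls from 2847 to 4563, while no trend gave 1284 and leaving out a library 1766 to 2246. Against spironolactone the calls went from 2454 to 3974 with the block, 1194 without the trend and 1565 to 1865 with a library left out.

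With a library left out, the number of members whose aldosterone effect differed between sample numbers went from 1 to 0, with 0 genes called in the whole table. The library then left alone at its sample number is assumed to vary like the others.

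The sign turned only in differences that were not called. On leaving out a library, Cdkn1b ranged from -0.104 to 0.0226 against vehicle and from -0.0239 to 0.102 between aldosterone and spironolactone. For spironolactone against vehicle, Cdkn1a ranged from -0.0198 to 0.0672, Cdkn1c from -0.22 to 0.159, Cdkn2c from -0.0607 to 0.0669 and Ccnd2 from -0.0426 to 0.0139, and Cdkn2c was 0.00319 with TMM scaling. The cause was not tested.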

Other observations

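Igf2 and H19, adjacent genes of a single imprinted locus, differed between the sample numbers. They were chosen after their values were seen, and imprinted genes in general were not tallied. As for Cdkn1c, p-values between the sample numbers may measure only the spread between plates. Igf2, a fetal growth factor gene, had 171 to 197 normalized counts in sample number 1 and 374 to 377 in sample number 2 in vehicle, a log2 difference of 1.03 (limma adjusted p = 0.000422). Unlike Cdkn1c it kept a gap in aldosterone, with 220 to 275 against 413 to 447, a log2 difference of 0.81 (limma adjusted p = 0.00205). H19, the long RNA beside Igf2, was higher in sample number 2 by 0.61 in vehicle (limma adjusted p = 0.000265) and by 0.63 in aldosterone (limma adjusted p = 0.000123).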
